A study of Mus musculus with 15 samples.

Results

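Whole-body ionizing radiation (WBIR) of 9 Gy was compared with Sham in the mouse spleen over all 547 endogenous genes of an immunology panel. The 6 samples compared were the 3 titled WBIR and the 3 titled Spleen Sham, chosen by their titles out of the 15 spleen samples of the series. According to the methods, all mice were female C57BL/6J, the inbred black strain, between 6 and 8 weeks of age. WBIR mice were irradiated with a caesium source and were given no vesicles from mesenchymal stem cells. Sham mice are labelled as having no injury and no treatment, and the study's text gives both groups saline into a vein 72 hours after the injury, with spleens taken 48 hours later. The labels themselves name no vehicle for either group. The spleen was made into a cell suspension and its red cells were lysed before RNA was isolated, so the RNA is that of all remaining spleen cells together. Messenger RNA was counted with the nanoString nCounter Mouse Immunology Panel, in which a pair of probes with a coloured barcode binds each transcript and the barcodes are counted without amplification.

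The spleen filters blood and holds B cell follicles, T cell zones and a red pulp rich in macrophages. Lymphocytes, B cells above all, are among the most radiosensitive cells of the body and die by p53-dependent apoptosis, whereas mature tissue macrophages divide little and withstand high doses. Blood neutrophils and platelets live for a short time and are replaced from the bone marrow, which is itself radiosensitive.

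In order to determine how irradiation changed the panel, counts were scaled to the 14 reference genes of the panel. The 426 endogenous genes whose mean over the 15 samples reached 20 counts entered the quasi-likelihood test of edgeR. A gene was called at a Benjamini-Hochberg adjusted p under 0.05, and it is said to have risen or fallen only then. Fold changes are WBIR over Sham on the log2 scale (log2FC), with their standard error (SE). Of the 426 genes, 92 were called higher (21.6%) and 200 lower (46.9%), together 68.5%, and for 71.1% the 3 WBIR and the 3 Sham values did not overlap. The count of any gene group is to be read against these shares. Of the called genes, 95 fell and 40 rose by over 4-fold. Over the tested genes log2FC had a median of -0.74 when scaled to the reference genes and of -0.03 when scaled by TMM over the endogenous genes, under which 135 genes were called higher (31.7%) and 150 lower (35.2%). Relative to the mean of all 14, the reference genes themselves ranged from -1.70 for Polr1b to 2.83 for G6pdx. Among them only Tubb5, Sdha and Alas1 overlapped between the WBIR and Sham libraries. Of the 292 calls, 210 held with the same direction under every alternative tried, 74 of them rises and 136 falls.

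Total counts were 471966, 179472 and 509621 in Sham replicates 1 to 3 and 204412, 285018 and 360995 in WBIR replicates 1 to 3. In both groups 1 library stood apart. Sham replicate 2 had the lowest total and the highest summed level of neutrophil and NK cell markers, and without it 101 genes were called higher (23.7%) and 183 lower (43.0%). WBIR replicate 1 had higher NK cell and platelet markers and lower macrophage markers than WBIR replicates 2 and 3. Results that rest on either library are given below with and without it, as is any call that TMM scaling ended.

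**Figure D1:**
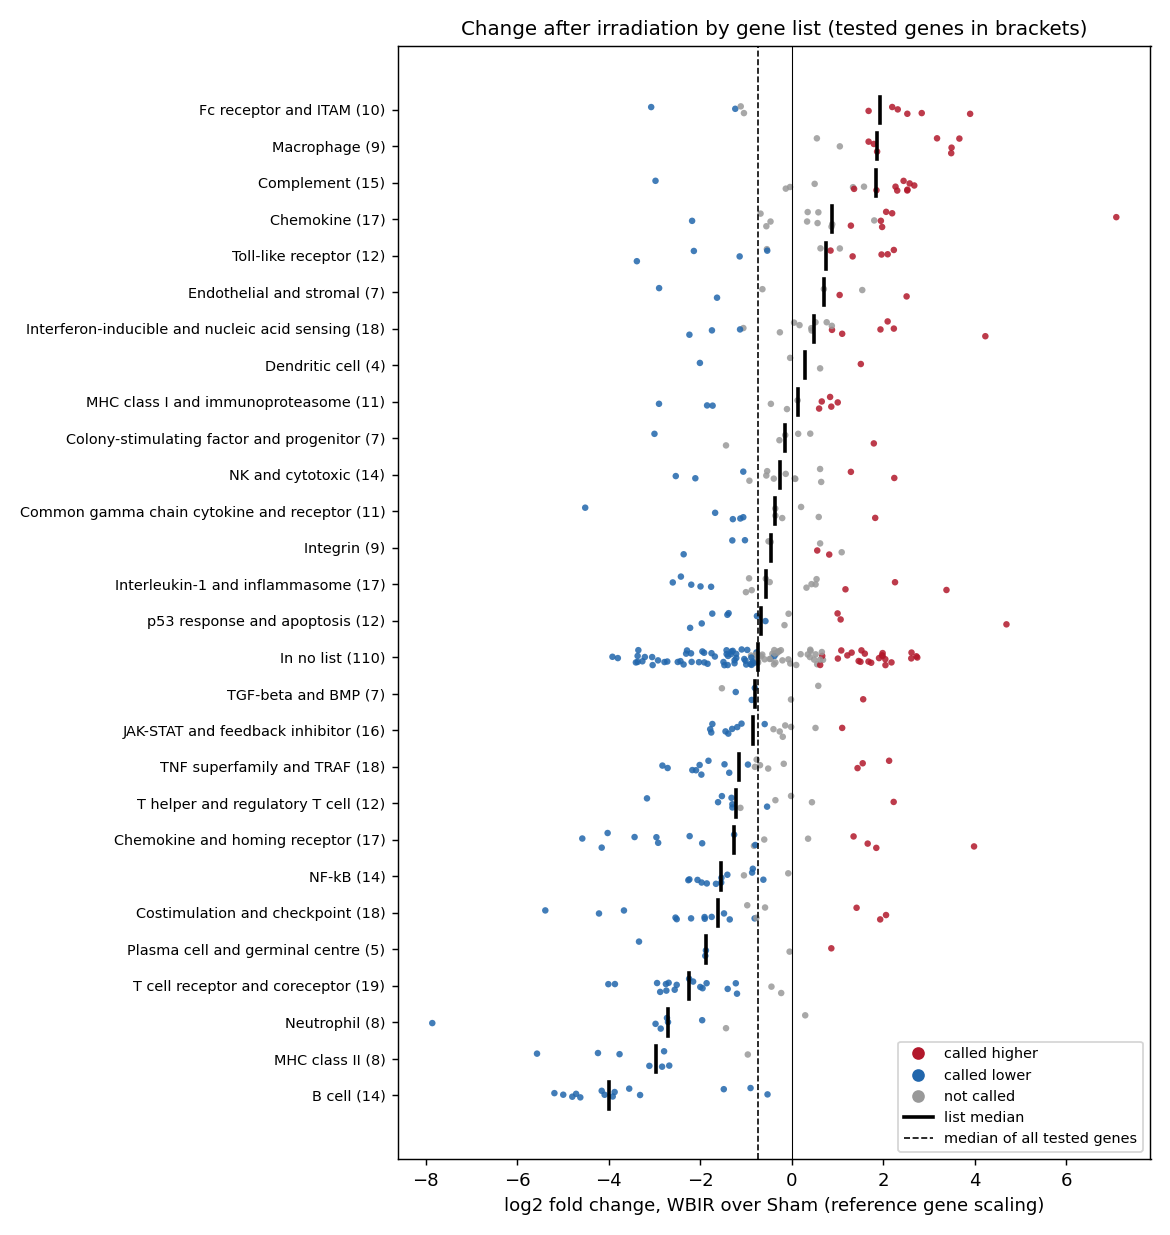
Log2 fold changes of WBIR over Sham (x axis, reference gene scaling) for the tested genes of each list (y axis), coloured by call, with black bars at list medians and a dashed line at the median of all tested genes (-0.74). B cell genes lie lowest, with a median of -3.998, and the Fc receptor, macrophage and complement lists highest, with medians of 1.94, 1.87 and 1.86. The medians of the NK, gamma chain, integrin and progenitor lists lie below 0 here and above 0 with TMM scaling, and that of the interleukin-1 list moves from -0.56 to 0.00.

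B cell genes had the lowest median of the 27 lists. All 14 tested B cell genes were called lower, with log2FC from -5.18 to -0.53 and a median of -3.998, and 12 of them also with TMM scaling, which ended the calls of Btk and Pou2f2, the latter lost also without any single library but WBIR replicate 3. Cd22, an inhibitory lectin of B cells, fell from scaled counts of 1701, 3748 and 1040 in Sham to 65.6, 46.6 and 65.7 in WBIR (log2FC -5.18 ± 0.49 SE, and -4.53 without Sham replicate 2). No WBIR value came near the Sham range (adjusted p = 8.06e-07). Cd79b, a signalling chain of the B cell receptor, had 4476, 1668 and 6778 in Sham and 176, 254 and 329 in WBIR (log2FC -4.09 ± 0.50). Its lowest Sham value was that of replicate 2, as it was for Ms4a1, the gene of CD20, whereas Cd22 and Pax5 were highest there. Tnfrsf13c, which encodes the BAFF receptor on which mature B cells depend, fell by 4.62 ± 0.50 on the log2 scale. Tnfrsf13b (TACI), another receptor of this family, fell from 469, 338 and 282 to 33.5, 34.4 and 39.6 (log2FC -3.33 ± 0.29). In RNA of whole spleen suspensions, fewer cells of a type and less RNA per cell cannot be told apart.

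Genes of plasma cells and germinal centres did not move together, with 3 of 5 tested genes called lower and 1 higher. Bcl6 and Irf4, transcription factors of germinal centre and activated B cells, fell by 1.88 ± 0.44 and 1.87 ± 0.34 on the log2 scale. Xbp1, which drives the secretory programme of plasma cells and is used by other secreting cells too, rose from 628, 529 and 774 in Sham to 973, 1192 and 1369 in WBIR (log2FC 0.87 ± 0.22, adjusted p = 0.00305). Prdm1, the plasma cell factor Blimp-1, had 38.1, 68.6 and 82.9 in Sham and 60.5, 53.7 and 69.1 in WBIR, and was not called (adjusted p = 0.905).

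MHC class II genes, which present peptides to CD4 T cells and are expressed by B cells, dendritic cells and activated macrophages, fell as a group. Of 8 tested genes 7 were called lower, the same number as with TMM scaling, with a median log2FC of -2.97. Cd74, the invariant chain that guides class II molecules to the endosome, had 49425, 11787 and 30172 scaled counts in Sham and 4371, 3928 and 4949 in WBIR (log2FC -2.79 ± 0.51). H2-Aa, a chain of the presenting molecule I-A, had 22434, 7169 and 19854 in Sham and 1834, 1834 and 2070 in WBIR (log2FC -3.11 ± 0.49). For both genes Sham replicate 2 was the lowest Sham value and still lay above every WBIR value. Ciita, the master regulator of class II transcription, fell from 987, 635 and 847 to 68.2, 58.7 and 55.6 (log2FC -3.76 ± 0.35). H2-DMb2 (log2FC -4.23 ± 0.37) belongs to the peptide loading molecule DM, and H2-Ob (log2FC -5.56 ± 0.49) to its inhibitor DO, which is mostly a B cell product. H2-DMa, the other chain of DM, had 1212, 764 and 1307 in Sham and 521, 586 and 587 in WBIR and was not called (log2FC -0.96 ± 0.41, adjusted p = 0.0517), although it was called lower without Sham replicate 2.

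Class II promoters are known for a conserved module that ends in the Y box, an inverted CCAAT sequence bound by NF-Y. Because these genes fell together, their promoters are shown for the letters GATTGG, searched on both strands in RefSeq windows of 250 bases before to 50 bases after each start (build GRCm38.p6). Of the 8 tested class II genes 5 had an entry, and all 5 held GATTGG, which was present in 16.1% of all 32851 windows and for 18.2% of all genes with an entry. The match began 58 bases before the start in H2-Ob, 91 in H2-DMb2, 49 in H2-Aa and 60 in H2-Eb1, with a further match on the opposite strand 35 bases before the start of H2-Eb1. In H2-DMa, the member that was not called, it began 199 bases before 1 of its annotated starts. The stretches below run from 5′ to 3′ on the strand of the gene, with GATTGG or its reverse complement in capitals.
H2-Ob, chr17:34238805-34238884, plus strand: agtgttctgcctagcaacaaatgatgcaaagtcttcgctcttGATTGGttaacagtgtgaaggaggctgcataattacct
H2-DMb2, chr17:34145129-34145208, plus strand: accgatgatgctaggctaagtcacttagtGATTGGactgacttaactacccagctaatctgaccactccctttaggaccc
H2-Aa, chr17:34287844-34287923, minus strand: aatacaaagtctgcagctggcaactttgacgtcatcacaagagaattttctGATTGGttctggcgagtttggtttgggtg
H2-Eb1, chr17:34305767-34305846, plus strand: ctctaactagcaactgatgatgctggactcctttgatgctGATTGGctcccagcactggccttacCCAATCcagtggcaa
A match is a description of the letters and not a measured binding site.

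MHC class I genes split by role, with 5 of 11 tested genes called higher and 3 lower. H2-K1, a classical presenting chain, fell from 3843, 7019 and 4064 to 1709, 1228 and 1575 (log2FC -1.73 ± 0.28), and Tap1, a subunit of the peptide transporter, fell by 1.85 ± 0.29 on the log2 scale. B2m, the light chain shared by class I molecules, had 27519, 20222 and 26353 in Sham and 25480, 26264 and 29490 in WBIR, so its ranges overlapped and it was not called (adjusted p = 0.658). The 5 genes of this list that rose were all proteasome subunits, by 0.60 (Psmc2) to 1.01 (Psmb7) on the log2 scale.

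T cell genes fell as a second large group. Of 19 tested genes of the T cell receptor and its coreceptors, 17 were called lower and none higher, with a median log2FC of -2.24, and 16 remained lower with TMM scaling, which ended the call of Nfatc2. Cd3e, a chain of the receptor complex, had 1355, 1737 and 1104 scaled counts in Sham and 295, 270 and 377 in WBIR (log2FC -2.15 ± 0.23). The coreceptors fell unequally. Cd8a, the coreceptor of cytotoxic T cells, had 548, 1340 and 449 in Sham and 54.0, 47.6 and 58.1 in WBIR (log2FC -3.86 ± 0.43, and -3.22 without Sham replicate 2). Cd4, the coreceptor of helper T cells, which some myeloid cells also express, had 768, 1007 and 561 in Sham and 315, 317 and 387 in WBIR (log2FC -1.19 ± 0.29). The ratio of Cd8a to Cd4 counts within a library, which no scaling can change, was 0.714, 1.33 and 0.801 in Sham and 0.171, 0.15 and 0.15 in WBIR. Its log2 difference was -2.54 with no overlap. The exact two-sided permutation p was 0.10, the smallest that 3 against 3 libraries allow. The ratio was chosen after its values were seen, so this p is a description and cannot serve as a test.

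**Figure D2:**
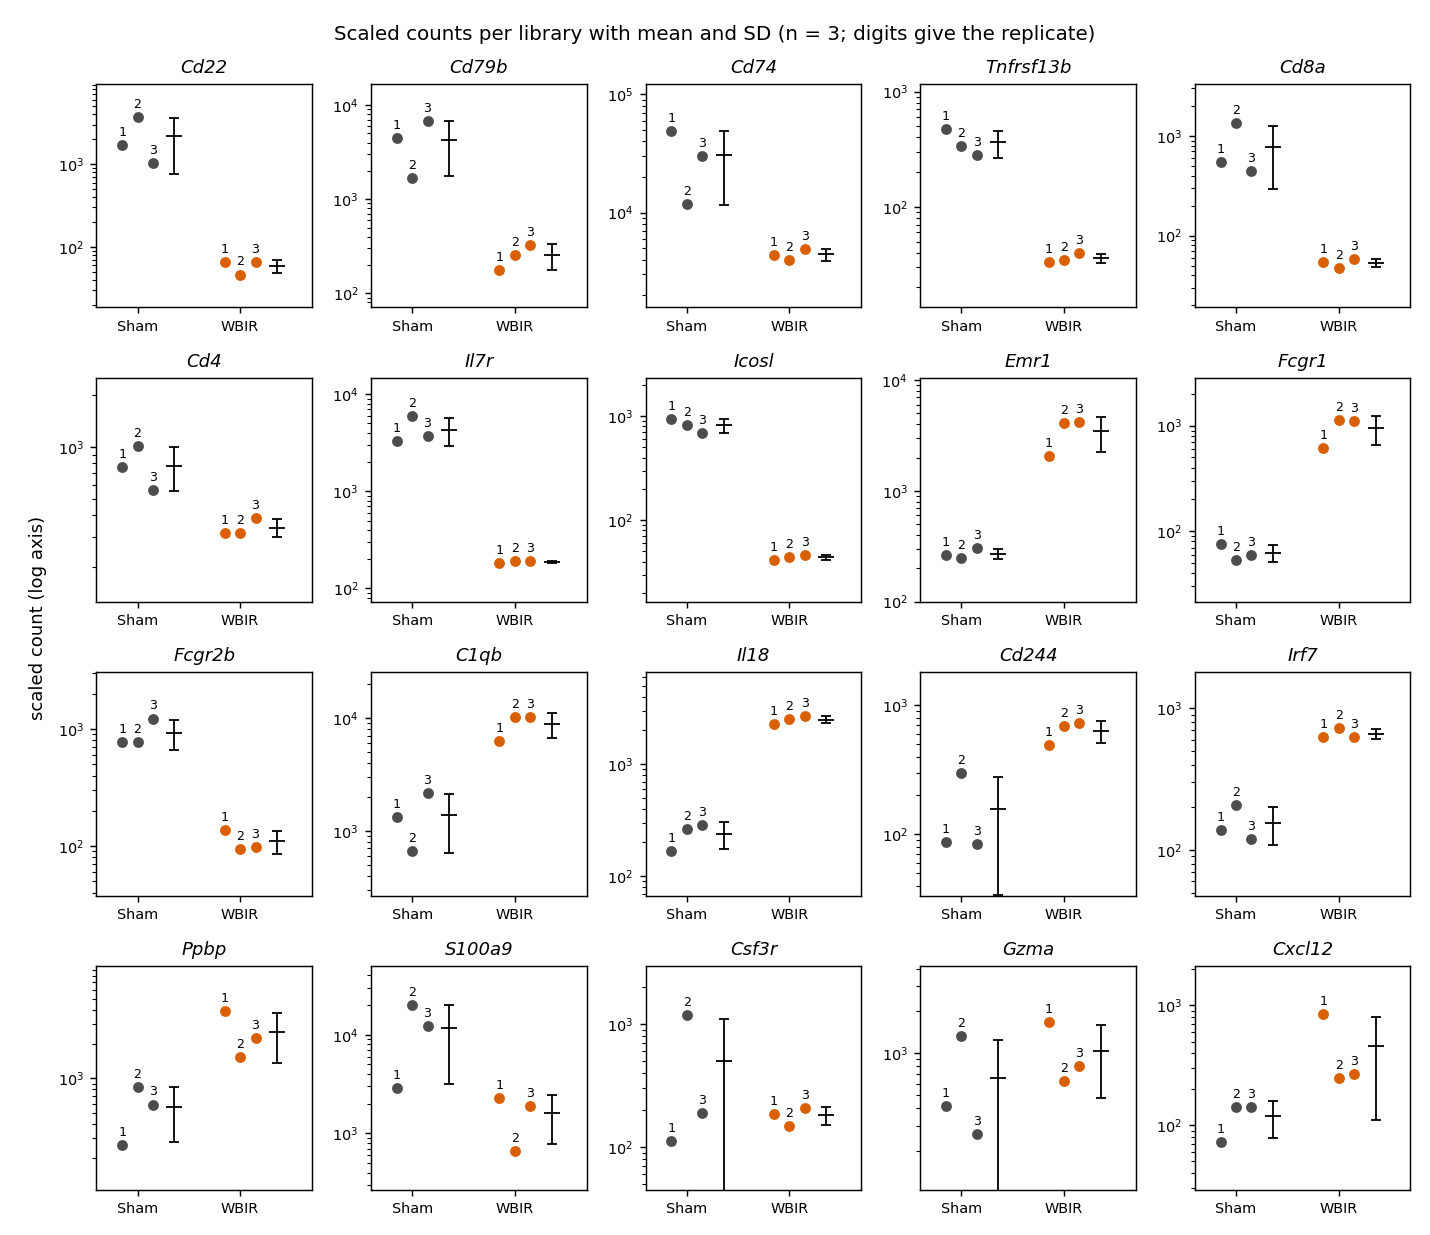
Scaled counts (y axis, log scale) of 20 genes in each Sham and WBIR library, with the replicate number above each point and the mean ± SD of 3 libraries beside it (a lower arm that leaves the axis is cut off). Il7r and Icosl separate the groups widely with little spread in WBIR, whereas Csf3r and Gzma overlap, Csf3r with Sham replicate 2 far above the other 5 libraries.

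Il7r, the receptor chain through which naive T cells and developing lymphocytes receive survival signals, fell 22.8-fold. Its scaled counts were 3304, 5900 and 3688 in Sham and 183, 189 and 193 in WBIR (log2FC -4.51 ± 0.32, adjusted p = 7.56e-08). Lef1, a transcription factor of naive T cells, fell by 3.36 ± 0.42 and Tcf7, its relative, by 2.74 ± 0.33 on the log2 scale, and without Sham replicate 2 the log2FC of Lef1 was -2.75. Foxp3, which defines regulatory T cells, had 100.2, 189 and 89.1 in Sham and 46.3, 41.5 and 34.5 in WBIR (log2FC -1.61 ± 0.38). Runx3, a factor of the CD8 lineage, fell by 3.16 ± 0.47 (log2FC -2.37 without Sham replicate 2). Maf, used by some T cells and by macrophages, rose from 122, 127 and 137 to 522, 689.5 and 603 (log2FC 2.23 ± 0.26) and was the only 1 of the 12 tested T helper and regulatory genes called higher. Of the others 7 were called lower, and TMM scaling left 4 of these.

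Costimulatory ligands and receptors moved in both directions. Of 18 tested genes 12 were called lower and 3 higher, with 11 lower and 3 higher under TMM scaling, which ended the call of Cd274, a call near the threshold (adjusted p = 0.04997) that most alternatives ended. Icosl, the ligand of ICOS that B cells carry, fell from 936, 826 and 690.4 to 41.2, 44.6 and 46.3 (log2FC -4.21 ± 0.29), and Icos itself fell by 1.75 ± 0.35. Ctla4, the inhibitory receptor of regulatory and activated T cells, fell from 241, 328 and 597 to 28.3, 31.4 and 32.0 (log2FC -3.66 ± 0.34), and Cd28, its activating counterpart, by 2.20 ± 0.53. The ligands that Ctla4 and Cd28 share rose. Cd86 had 318, 162 and 199 in Sham and 547, 1004 and 1067 in WBIR (log2FC 1.94 ± 0.38), and Cd80 had 58.0, 88.2 and 78.3 in Sham and 157, 202 and 236 in WBIR (log2FC 1.42 ± 0.30). Cd244, a receptor of the SLAM family on NK and myeloid cells, rose from 87.8, 299 and 83.7 to 493, 686 and 723 (log2FC 2.07 ± 0.41), with the highest Sham value in replicate 2, without which its log2FC was 2.89.

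**Figure D3:**
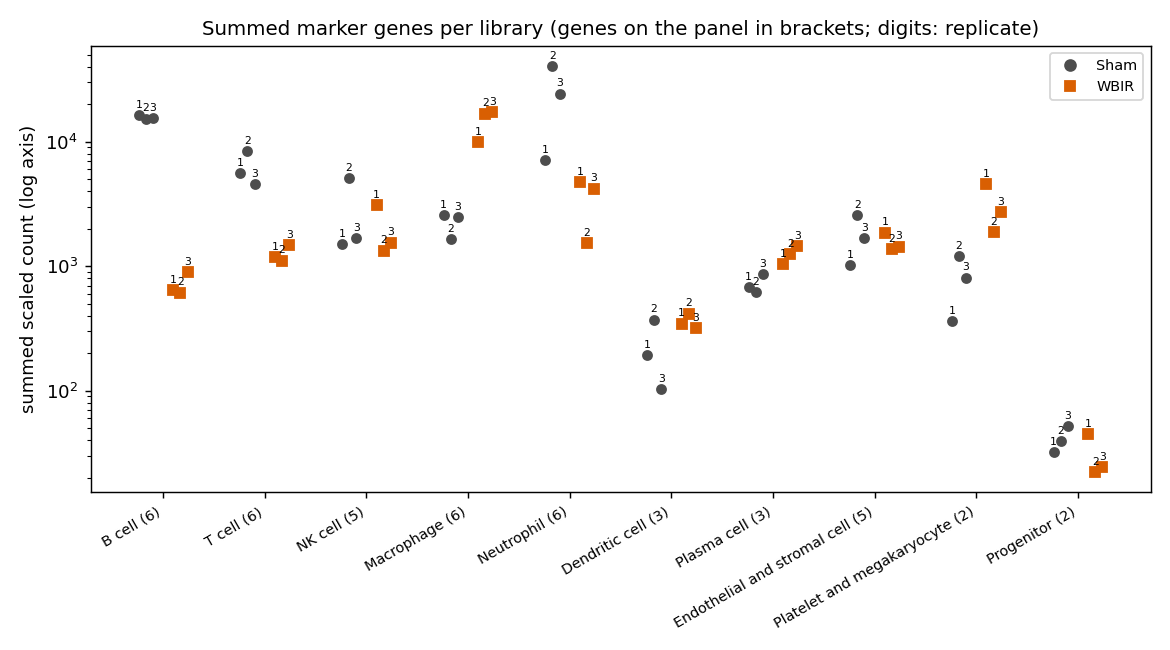
Summed scaled counts (y axis, log scale) of marker genes per cell type (x axis, genes on the panel in brackets) in each Sham and WBIR library. B cell sums were 15320 to 16412 in Sham and 616 to 903 in WBIR, macrophage sums 1644 to 2593 and 9973 to 17330, and NK cell sums 1498 to 5101 and 1333 to 3078 with overlap.

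NK and cytotoxic genes showed no common direction. Of 14 tested genes 2 were called higher and 3 lower, and the median log2FC of -0.26 became 0.50 with TMM scaling. Without Sham replicate 2, 3 were called higher and 2 lower (median 0.56). Without WBIR replicate 1, 1 was called higher and 4 lower (median -0.70). Klrd1, the CD94 chain of NK receptors, fell from 756, 2759 and 1044 to 405, 178 and 205 (log2FC -2.53 ± 0.53, and -1.78 without Sham replicate 2). Gzmb, the protease granzyme B, rose from 21.5, 78.4 and 26.9 to 297, 119 and 146 (log2FC 2.25 ± 0.55). Its log2FC was 2.94 without Sham replicate 2 and 1.75 without WBIR replicate 1. Gzma, granzyme A, had 415, 1316 and 262 in Sham and 1668, 625 and 804 in WBIR and was not called (log2FC 0.65 ± 0.56, adjusted p = 0.305). It was called higher with TMM scaling (log2FC 1.46) and without Sham replicate 2 (log2FC 1.61), whereas its log2FC was 0.12 without WBIR replicate 1. The pore protein Prf1 (log2FC -0.39 ± 0.49) and the receptor Klrk1 (log2FC 0.08 ± 0.47) were not called, but Klrk1 was called higher with TMM scaling (log2FC 0.86, adjusted p = 0.0423). The chemokine Xcl1, made by NK and CD8 T cells, was called higher (log2FC 1.30 ± 0.50), but not without WBIR replicate 1 (adjusted p = 0.189), Sham replicate 1 (0.0689) or Sham replicate 3 (0.127). Summed NK cell markers were 1498, 5101 and 1684 in Sham and 3078, 1333 and 1546 in WBIR, so that Sham replicate 2 and WBIR replicate 1 were each highest in their group. The Klr genes include close relatives, and cross-hybridisation between them was not assessed.

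Neutrophil genes fell or were not called. Of 8 tested genes 6 were called lower and none higher, 5 of them also with TMM scaling. Camp, an antimicrobial peptide of neutrophil precursors, fell from 382, 586 and 1266 to 5.15, 3.04 and 1.69 scaled counts, with raw counts in WBIR as low as 2 and no background subtracted. The size of its fall (log2FC -7.85 ± 1.05) is limited by these low counts, and it was -5.16 when counts under 20 were raised to 20, -5.66 with limma and -7.22 without Sham replicate 3. S100a9, which with S100a8 forms the calprotectin of neutrophils and monocytes, had 2878, 19896 and 12357 in Sham and 2270, 667 and 1901 in WBIR (log2FC -2.86 ± 0.76, and -2.24 without Sham replicate 2). The groups did not overlap, but Sham replicate 1 lay near the WBIR values. Receptors of mature neutrophils rested on 1 library. Cxcr2, the receptor for the neutrophil chemokines, had 73.7, 608 and 162 in Sham and 111, 27.3 and 76.7 in WBIR, with overlap (log2FC -1.95 ± 0.81, adjusted p = 0.0452). It was not called without Sham replicate 2 (log2FC -0.73, adjusted p = 0.410), WBIR replicate 2 (0.138) or WBIR replicate 3 (0.0903), or with TMM scaling (adjusted p = 0.179). Csf3r, the receptor of G-CSF, had 112, 1188 and 189 in Sham and 187, 148 and 209 in WBIR and was not called (log2FC -1.43 ± 0.69), and its log2FC was 0.27 without Sham replicate 2, but it was called lower without Sham replicate 1 (log2FC -1.91) or Sham replicate 3 (log2FC -1.83). Gfi1, a transcription factor of neutrophil and lymphoid precursors, fell by 3.00 ± 0.47 on the log2 scale. The size of this fall is limited by low counts too, since its log2FC was -2.11 when counts under 20 were raised to 20 and -2.18 with limma.

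Macrophage genes rose as a group. Of 9 tested genes 7 were called higher and none lower, with a median log2FC of 1.87, and all 9 were called higher with TMM scaling. Emr1, which encodes the macrophage antigen F4/80, had 261, 249.9 and 303 scaled counts in Sham and 2076, 4088 and 4199 in WBIR (log2FC 3.67 ± 0.36, adjusted p = 1.18e-06). Every WBIR value lay above every Sham value, and WBIR replicate 1 was the lowest of its group. Marco, a scavenger receptor of marginal zone macrophages, rose 11.3-fold, from 341, 404 and 551 to 3721, 5326 and 5621 (log2FC 3.50 ± 0.70). Csf1r, the receptor of the macrophage growth factor, had 1454, 715 and 1116 in Sham and 2529.9, 4298 and 4618 in WBIR (log2FC 1.80 ± 0.43). Cd163, the haemoglobin scavenger receptor of red pulp macrophages, rose from 427, 203 and 390.1 to 748, 1517 and 1494 (log2FC 1.87 ± 0.63), but was not called without Sham replicate 2 (adjusted p = 0.0678). Summed macrophage markers were 2593, 1644 and 2473 in Sham and 9973, 16800 and 17330 in WBIR, beside summed B cell markers of 16412, 15320 and 15564 in Sham and 641, 616 and 903 in WBIR. The part that a change in the mix of cells had in any single fold change was not tested.

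Fc receptors, which bind antibody, were called in both directions. Of 10 tested genes of these receptors and their signalling chains 6 were called higher and 2 lower, with a median log2FC of 1.94. Fcgr1, the high-affinity activating receptor, rose 15.1-fold, from 75.4, 53.9 and 59.1 to 609.9, 1138 and 1104 (log2FC 3.90 ± 0.51). Fcgr3 and Fcgr4, further activating receptors, rose by 2.53 ± 0.44 and 2.20 ± 0.32, and Fcer1g, the signalling chain they share, by 2.85 ± 0.26 on the log2 scale. Fcgr2b, the inhibitory receptor, which is also the Fc receptor of B cells, fell from 770.3, 767 and 1226 to 138, 94.2 and 98.6 (log2FC -3.07 ± 0.35). The within-library ratio of Fcgr1 to Fcgr2b was 0.0978, 0.0703 and 0.0482 in Sham and 4.43, 12.1 and 11.2 in WBIR. Only the change of such a ratio is to be read, since the probes of different genes may not bind equally well. Syk, the kinase downstream of these receptors, fell by 1.23 ± 0.27 but was not called with TMM scaling (adjusted p = 0.108). Other myeloid genes in no list moved with the activating receptors, namely the inhibitory receptor Lilrb4, from 49.7, 318 and 174 to 975, 1059 and 1228 (log2FC 2.62 ± 0.49, and 3.28 without Sham replicate 2), and Hfe, which controls iron uptake, from 242, 171 and 318 to 842, 1691 and 1983 (log2FC 2.62 ± 0.42). Tfrc, the transferrin receptor of dividing cells and red cell precursors, fell by 2.72 ± 0.30.

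Complement genes rose in the classical pathway. Of 15 tested genes 9 were called higher and 1 lower, with a median log2FC of 1.86. C1qb, part of the C1q molecule that macrophages make, had 1329, 666 and 2159 in Sham and 6287, 10170 and 10280 in WBIR (log2FC 2.68 ± 0.49). C1ra and C1s, the proteases of C1, rose by 2.45 ± 0.35 and 1.86 ± 0.52, of which C1s was not called when counts under 20 were raised to 20 and had a log2FC of 1.04 without WBIR replicate 1, and C2 by 2.53 ± 0.34 on the log2 scale. C4a rose equally (log2FC 2.53 ± 0.32), but it has a near-identical copy in C4b and is uncertain. Cfp, properdin of the alternative pathway, rose by 2.31 ± 0.40 and C6 of the terminal complex by 2.27 ± 0.64. C3, on which the pathways meet, was not called (log2FC 0.51 ± 0.48, adjusted p = 0.364). Cd55, which protects cells from complement, fell from 623, 1632 and 707 to 82.4, 130 and 162 (log2FC -2.97 ± 0.65). Another 13 genes of this list, most of the terminal complex among them, had too few counts to be tested.

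Toll-like receptors and their partners moved in both directions. Of 12 tested genes 5 were called higher and 4 lower, and with TMM scaling 6 higher and 2 lower. Tlr4, the endotoxin receptor, rose from 112, 147 and 174 to 392, 749 and 713 (log2FC 2.10 ± 0.42), and Ly96, its partner MD-2, by 1.97 ± 0.29. Tlr8 rose by 2.24 ± 0.52 and Myd88, the adaptor of most Toll-like receptors, by 0.85 ± 0.18. Sigirr, an inhibitor of this receptor family, fell from 417, 757 and 481 to 56.6, 42.5 and 59.0 (log2FC -3.38 ± 0.35). Tlr1 fell by 2.14 ± 0.38, and Tlr9, a B cell and dendritic cell sensor of DNA, by 1.13 ± 0.29, a call that TMM scaling ended (adjusted p = 0.119). Of 17 tested genes of the interleukin-1 family and the inflammasome 3 were called higher and 5 lower, against 21.6% and 46.9% of all tested genes. Il18, a cytokine stored as a precursor and cut by caspase 1, had 167, 265 and 287 in Sham and 2305, 2537 and 2668 in WBIR (log2FC 3.39 ± 0.24, adjusted p = 7.56e-08). Casp1 rose by 1.18 ± 0.22, while Il1b was not called (log2FC -0.93 ± 0.88). Il1a rose from 10.8, 26.9 and 34.6 to 133, 92.1 and 119.6 (log2FC 2.26 ± 0.80), with an adjusted p of 0.0877 without Sham replicate 1 and of 0.0506 without Sham replicate 2.

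NF-kB pathway genes moved down or were not called. Of 14 tested genes 12 were called lower and none higher (median log2FC -1.53), against 46.9% and 21.6% of all tested genes. With TMM scaling only 6 were called lower (median -0.80), against 35.2% of all tested genes. Nfkbia, the inhibitor that NF-kB itself induces, fell from 1184, 808 and 1113 to 225, 240.0 and 282 (log2FC -2.06 ± 0.34). Tnfaip3, the inhibitor A20, fell by 2.26 ± 0.67, a call that TMM scaling ended (adjusted p = 0.0682). Ikbkb and Ikbkg, subunits of the activating kinase, fell by 2.23 ± 0.37 and 1.53 ± 0.31 and were called with and without TMM scaling, and the log2FC of Ikbkb was -1.50 without Sham replicate 2. Rela and Nfkb1, the DNA-binding subunits, fell by 0.86 ± 0.16 and 0.85 ± 0.19 with the reference genes but only by 0.25 and 0.23 with TMM scaling, where neither was called. In the JAK-STAT list 9 of 16 tested genes were called lower and 1 higher, against the same 46.9% and 21.6%. With TMM scaling 6 were lower and 3 higher, against 35.2% and 31.7% of all tested genes. Jak2 fell from 772, 921 and 1331 to 324, 282 and 275 (log2FC -1.78 ± 0.21).

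Interferon-inducible genes and sensors of nucleic acids differed by member. Of 18 tested genes 6 were called higher and 3 lower, and with TMM scaling 13 higher and 2 lower. Irf7, the amplifier of type I interferon induction, rose from 139, 208 and 119 to 628, 720 and 628 (log2FC 2.10 ± 0.34). Ifih1, the RNA sensor MDA5, rose from 97.7, 218 and 127 to 588, 778 and 686 (log2FC 2.24 ± 0.28). Bst2, tetherin, which holds budding virus at the cell surface, rose from 317, 301 and 213 to 973, 1113 and 1110.4 (log2FC 1.94 ± 0.23). Irgm1, a GTPase induced by interferon, had 719.8, 1142 and 907 in Sham and 1197, 1041 and 882 in WBIR and was not called (log2FC 0.17 ± 0.27), although it was with TMM scaling (log2FC 0.83). Irf3, the factor that starts interferon induction, fell from 61.3, 103 and 73.0 to 20.6, 14.2 and 15.2 (log2FC -2.23 ± 0.38), and Ifnar1, a chain of the type I interferon receptor, by 1.74 ± 0.24. Tmem173, the DNA sensing adaptor STING, fell by 1.13 ± 0.29, a call that TMM scaling ended (adjusted p = 0.0571).

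Genes induced by interferon are known for an element that repeats GAAA with a spacer of a pair of bases. The letters GAAA, any pair of bases and GAAA again were searched on both strands in the same RefSeq windows. They were found for 3.99% of the 27025 genes with a window and for 5 of the 14 tested genes of this list with an entry, namely Ifih1 and Bst2, which rose, and Stat2, Ddx58 and Irgm1, which were not called. Bst2 and Irgm1 are shown because each held a tandem of overlapping matches before the start. With reference gene scaling only Bst2 was called, whereas Irgm1 was called higher too with TMM scaling. The matches are in capitals, from 5′ to 3′ on the strand of the gene.
Bst2, chr8:71537563-71537622, minus strand: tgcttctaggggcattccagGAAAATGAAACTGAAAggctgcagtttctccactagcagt
Irgm1, chr11:48871431-48871480, minus strand: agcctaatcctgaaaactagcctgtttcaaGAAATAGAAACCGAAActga
The matches began 130 and 124 bases before the start in Bst2, and 30 and 24 bases before it in Irgm1.

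Genes of the p53 response and apoptosis were called in both directions, 3 of the 12 tested genes higher and 7 lower, against 21.6% and 46.9% of all tested genes. With TMM scaling 4 were higher and 5 lower. Cdkn1a, the p53 target that stops the cell cycle, rose from 24.0, 14.7 and 68.3 to 1127, 892 and 951 (log2FC 4.70 ± 0.41, and 5.59 without Sham replicate 3). Bax, a p53 target that opens the mitochondrial membrane, rose from 209, 610.05 and 284 to 762, 791 and 743 (log2FC 1.07 ± 0.30). Bcl2, which protects lymphocytes from apoptosis, fell from 953, 3261 and 1067 to 458, 338 and 337 (log2FC -2.22 ± 0.43, and -1.42 without Sham replicate 2). The within-library ratio of Bax to Bcl2 was 0.219, 0.187 and 0.266 in Sham and 1.66, 2.34 and 2.21 in WBIR, with a log2 difference of 3.21. Trp53, which encodes p53, fell by 1.40 ± 0.27, Atm, the kinase that signals DNA breaks to it, by 1.73 ± 0.43, and Fas, a death receptor and p53 target, by 1.38 ± 0.30 on the log2 scale. Their WBIR values lay below every Sham value.

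Chemokine ligands and receptors were called in both directions. Of 17 tested ligands 6 were called higher and 1 lower (median log2FC 0.87), or 4 and 2 without WBIR replicate 1, and of 17 tested chemokine and homing receptors 4 were called higher and 10 lower (median -1.25), against 21.6% and 46.9% of all tested genes. With TMM scaling 9 ligands were called higher and 1 lower, and 5 receptors higher and 7 lower, against 31.7% and 35.2% of all tested genes. Cxcr4, the receptor that holds lymphocytes and precursors near stromal cells, fell 23.9-fold, from 2413, 2651 and 3373 to 111, 117 and 126 (log2FC -4.57 ± 0.30). Cxcl12, its ligand from stromal cells, rose from 72.1, 142 and 141 to 854, 246 and 268 (log2FC 1.95 ± 0.48), with WBIR replicate 1 far above the others and the gene still called without it (log2FC 1.13, adjusted p = 0.0161). Ccr7, which leads T cells to the T cell zone, fell by 2.92 ± 0.30, while its ligand Ccl19 had 14.1, 26.9 and 16.1 in Sham and 162, 32.4 and 36.2 in WBIR (log2FC 2.07 ± 0.59), and was not called without WBIR replicate 1 (log2FC 0.92, adjusted p = 0.0711). Cxcr5, which leads B cells to follicles, fell by 4.15 ± 0.42, and its ligand Cxcl13 was not called (log2FC 0.59 ± 0.70). Ccr3, the eotaxin receptor, was among the 4 receptors called higher. It rose from 146, 58.8 and 53.8 to 812, 1745 and 1618 (log2FC 3.99 ± 0.74, and 4.63 without Sham replicate 1). Its ligand Ccl24 had the largest rise on the panel (log2FC 7.10 ± 0.99). The log2FC of Ccl24 was 6.56 when counts under 20 were raised to 20 and 6.53 with limma.

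**Figure D4:**
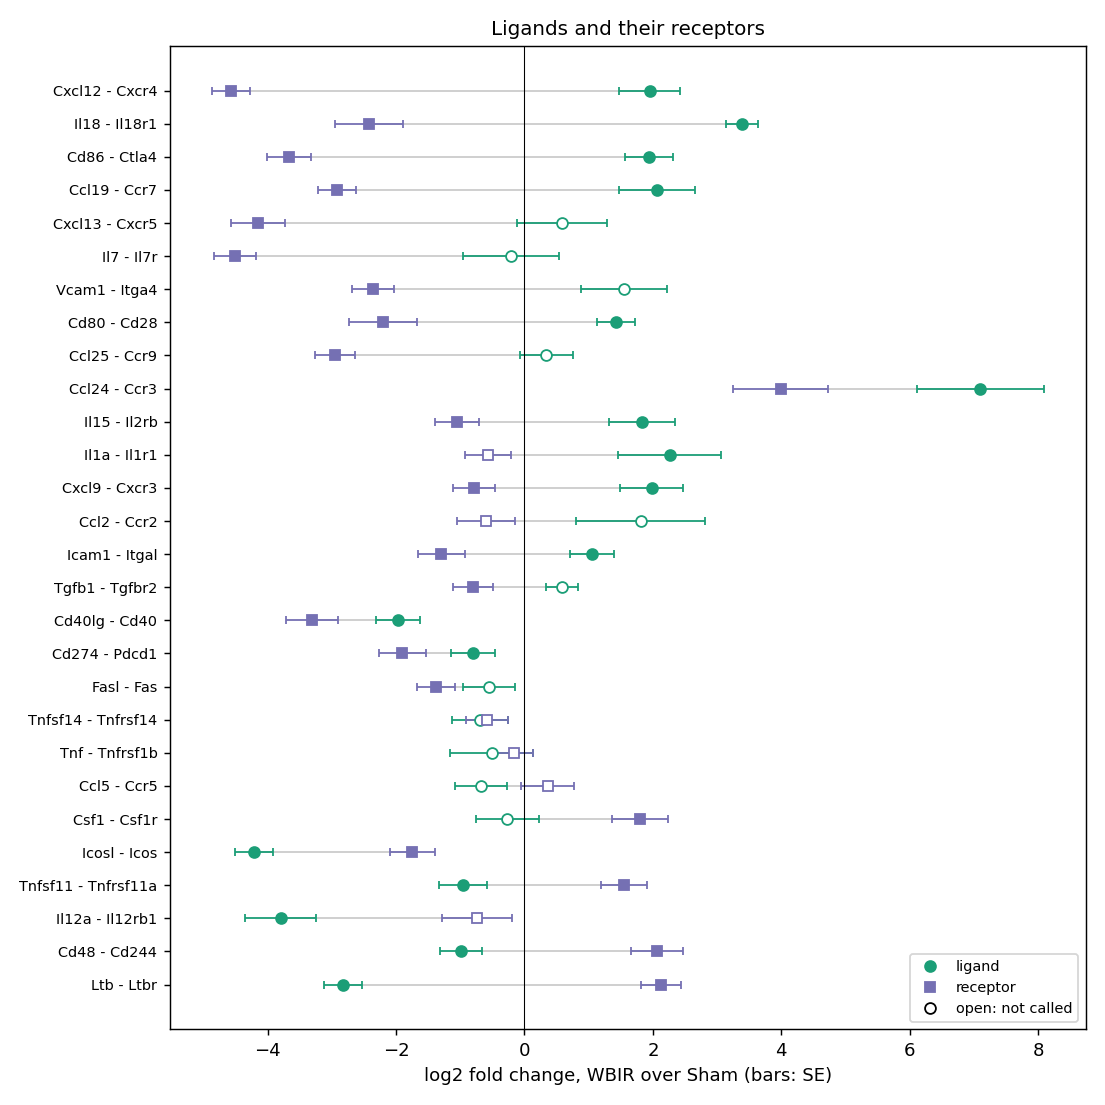
Log2 fold changes of WBIR over Sham ± SE (x axis, reference gene scaling) for 28 ligand and receptor pairs with both genes tested (y axis), circles for ligands and squares for receptors, open where not called. Cxcl12 and Cxcr4 lie farthest apart, at 1.95 and -4.57, whereas Ccl24 and Ccr3 both lie above 0, at 7.10 and 3.99.

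The same comparison was made over cytokine, costimulatory and adhesion pairs. Of 45 pairs of a ligand and its receptor, chosen after the values of these genes were known, 28 had both genes tested. The ligand was called higher and the receptor lower in 8 pairs, and the reverse held in 3. Both were called higher in 1 pair and both lower in 3, and in the other 13 at least 1 gene was not called. With TMM scaling these counts were 7, 1, 1 and 2, and 17 with at least 1 gene not called. The pairs with a higher ligand and a lower receptor were not all the same under both scalings. Cxcl9 and Cxcr3, Il15 and Il2rb, and Icam1 and Itgal left this group with TMM scaling. Ccl25 and Ccr9, and Vcam1 and Itga4, joined it. No test was made over these pairs, and the counts are a description. Il18 rose while Il18r1, a chain of its receptor on T and NK cells, fell from 261, 1279 and 343 to 160, 79.0 and 111 (log2FC -2.42 ± 0.53, and -1.38 without Sham replicate 2). Il15, a survival cytokine of NK and memory CD8 T cells, rose from low counts of 15.7, 24.5 and 14.6 to 48.9, 76.9 and 60.7 (log2FC 1.83 ± 0.51), a call lost when counts under 20 were raised to 20 (adjusted p = 0.0507), while Il2rb, a chain of its receptor, fell by 1.06 ± 0.34, a call lost with TMM scaling and without Sham replicate 2 (adjusted p = 0.1097) or WBIR replicate 2 (0.0593). Ltb, a lymphotoxin chain of lymphocytes, fell from 3218, 2163 and 2070.3 to 329, 274 and 449 (log2FC -2.82 ± 0.29). Its receptor Ltbr, carried by stromal and myeloid cells, rose from 28.2, 63.7 and 43.0 to 126, 220 and 225 (log2FC 2.13 ± 0.31). Cd40lg and Cd40, through which helper T cells and B cells meet, fell by 1.97 ± 0.34 and 3.31 ± 0.41.

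Of the platelet genes on the panel Ppbp and Gp1bb rose. Ppbp, a chemokine precursor of platelet granules, had 263, 833 and 589.8 in Sham and 3881, 1543 and 2285 in WBIR (log2FC 2.20 ± 0.49). Gp1bb, part of the platelet receptor for von Willebrand factor, rose from 18.2, 36.7 and 23.04 to 259, 98.2 and 147 (log2FC 2.75 ± 0.47), and was the largest rise among genes in no list. Both genes remained called without WBIR replicate 1, which held the highest value of each. Itga2b, the platelet integrin chain, was not called (log2FC 1.10 ± 0.51, adjusted p = 0.0673), but was with TMM scaling (log2FC 1.82). Pdgfb, a growth factor of platelets, endothelium and macrophages, rose from 38.1, 100.5 and 31.5 to 281, 275 and 360 (log2FC 2.52 ± 0.36, and 3.13 without Sham replicate 2). The endothelial markers Pecam1 (log2FC -0.64 ± 0.34) and Cdh5 (log2FC 0.71 ± 0.43) and the progenitor marker Cd34 (log2FC -0.14 ± 0.62) were not called, and the signs of Pecam1 and Cd34 turned with TMM scaling. Cdh5 was called higher with TMM scaling (log2FC 1.35) and without Sham replicate 2 (log2FC 1.09, adjusted p = 0.0331), and Pecam1 was called lower without Sham replicate 1 (log2FC -0.91, adjusted p = 0.0218).

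The smaller lists held calls in both directions, as did all tested genes, of which 46.9% were called lower and 21.6% higher. With TMM scaling these shares were 35.2% and 31.7%. Of 18 tested TNF superfamily and TRAF genes 10 were called lower and 3 higher, or 9 and 3 with TMM scaling. Traf5, a signal carrier of these receptors in lymphocytes, fell by 2.71 ± 0.21 on the log2 scale, and Tnfrsf11a (RANK), a receptor of the macrophage and osteoclast lineage, rose from 25.7, 75.9 and 39.9 to 90.1, 172 and 135 (log2FC 1.56 ± 0.36). Of 11 tested common gamma chain cytokines and receptors 5 were called lower and 1 higher, and with TMM scaling 2 lower and 3 higher. Of 9 tested integrins 3 were called lower and 2 higher, or 1 and 4 with TMM scaling. Itga4, which binds Vcam1, fell from 801, 1325 and 1626 to 229, 229.8 and 272 (log2FC -2.36 ± 0.32). Itgb2, the chain shared by the leukocyte integrins, rose by 0.82 ± 0.27, but was not called without Sham replicate 3 (adjusted p = 0.0600). Of 4 tested dendritic cell genes 1 fell, namely Cd83 (log2FC -2.003 ± 0.43), a marker of mature dendritic cells and activated B cells, and 1 rose, namely Batf3 (log2FC 1.51 ± 0.36), a factor of cross-presenting dendritic cells. Xcr1, which defines those cells, had too few counts to be tested. With TMM scaling, and also without Sham replicate 2, 2 genes of the dendritic cell list were called higher and 1 lower. The dendritic cell marker Itgax, not called as reported, was called higher in both settings (log2FC 1.37 and 1.21). Of 7 tested TGF-beta and BMP genes 3 were called lower and 1 higher, of 7 endothelial and stromal genes 2 and 2, and of 7 growth factor and progenitor genes 1 and 1. With TMM scaling 1 TGF-beta and BMP gene was lower and 2 higher, so the direction of this list depends on the scaling. Under the same scaling 2 endothelial and stromal genes were lower and 4 higher, and 1 growth factor and progenitor gene was lower and 2 higher. Tgfbi, a matrix protein of macrophages and stroma, rose from 417, 576 and 435 to 1022, 1667 and 1529 (log2FC 1.57 ± 0.40), and Icam2, an adhesion molecule of endothelium, lymphocytes and platelets, fell from 762, 845 and 599 to 129.97, 75.9 and 91.0 (log2FC -2.89 ± 0.26).

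**Figure D5:**
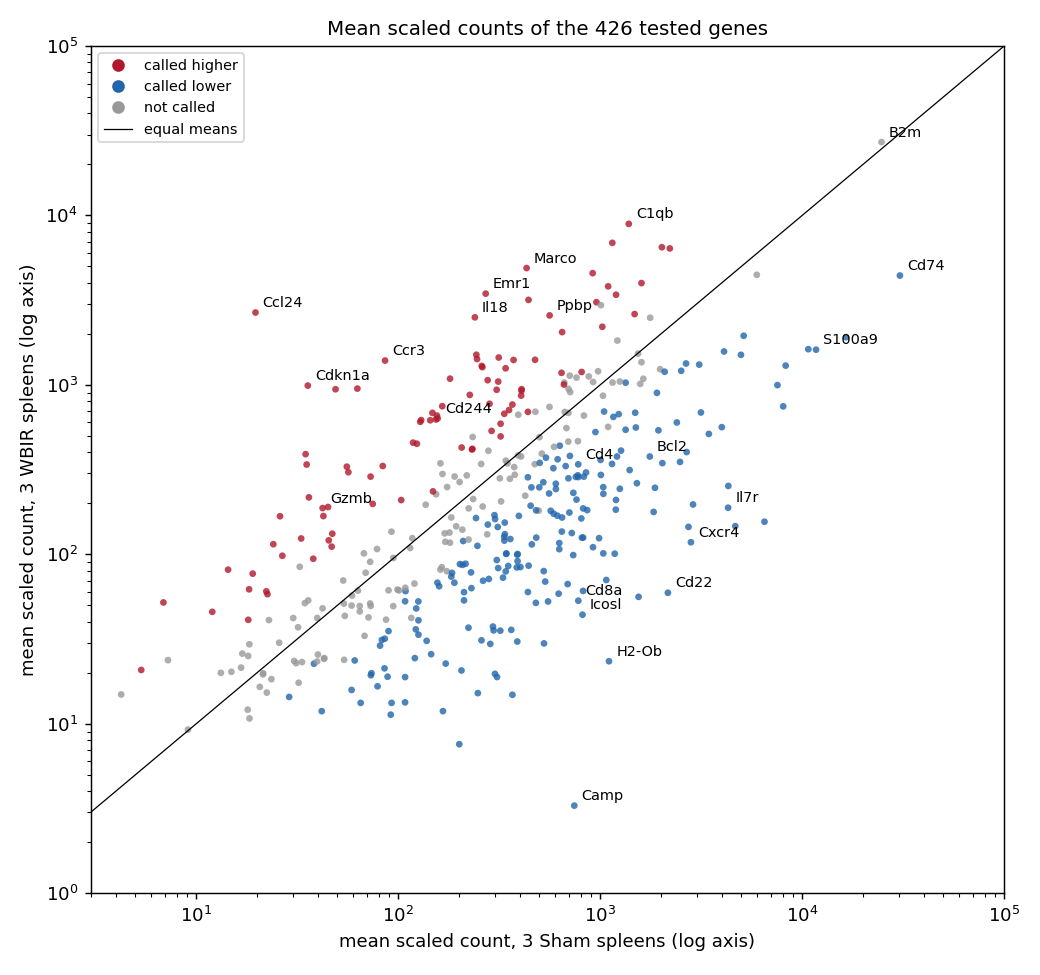
Mean scaled counts of the 426 tested genes in the 3 Sham spleens (x axis) and the 3 WBIR spleens (y axis), both on log scales, coloured by call, with a line at equal means. B2m lies on the line, Camp and Il7r lie far below it, and Ccl24, Cdkn1a and Ccr3 far above it.

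Of the 110 tested genes in no list 23 were called higher and 52 lower, shares near those of the whole panel. Dpp4 (CD26), a surface protease of T cells, had the largest fall, from 679, 1617 and 919 to 60.5, 67.8 and 83.4 (log2FC -3.91 ± 0.36). Il12a, a chain of interleukin-12 and interleukin-35, fell from 67.9, 247 and 184 to 12.9, 15.2 and 7.58 (log2FC -3.80 ± 0.55). Its log2FC was -2.98 when counts under 20 were raised to 20. Map4k1, a kinase that restrains lymphocyte receptor signals, fell from 584, 843 and 644 to 66.9, 61.8 and 71.6 (log2FC -3.36 ± 0.22). Plau, the protease urokinase, rose from 7.45, 2.45 and 10.8 to 59.2, 49.6 and 47.2 (log2FC 2.73 ± 0.48), and its receptor Plaur fell from 495, 916 and 458 to 61.8, 51.6 and 62.3 (log2FC -3.40 ± 0.38). The rise of Plau rests on raw counts as low as 1 in Sham and was not called when counts under 20 were raised to 20 (adjusted p = 0.0588). Litaf, a lysosomal protein, rose by 2.18 ± 0.27. The ectoenzymes that turn extracellular ATP into adenosine went apart, since Entpd1 (CD39) rose by 1.60 ± 0.50 and Nt5e (CD73) fell by 3.05 ± 0.35 on the log2 scale.

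The filter on low counts was set over all 15 samples, 12 of which were irradiated, so it left out genes present in Sham alone. Without it, 18 of the 121 untested genes were called, 16 lower and 2 higher. Il11ra1, a receptor chain of stromal cells, had raw counts of 58, 45 and 47 in Sham and 10, 10 and 11 in WBIR. Ccl8 and Il27, the genes called higher, had raw counts from 12 to 17 in WBIR and from 2 to 8 in Sham. All of these counts are low, and their fold changes are limited by counting error.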

How the data were processed

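Spleen mRNA of 15 samples was counted, and the 3 WBIR and 3 Sham samples, grouped by their titles, were compared. According to the methods, 100 ng of RNA was hybridised, samples were run in triplicate, and the authors normalised with nSolver. What the authors deposited are unnormalised barcode counts, as read from the values (whole numbers whose totals differ), with no control probes, so no background was subtracted. No value is 0, and the smallest is 1. The labels do not say that the 3 replicates are 3 mice, so p-values measure the spread between these samples, which may be technical. No cartridge or run was used here, so a batch cannot be told apart. Replicates of a group differed beyond counting noise (chi-square over 561 genes), so none was merged with another, which does not tell separate animals from repeat runs.

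Counts were scaled to the geometric mean of the 14 reference genes and tested with edgeR 4.0.16 (R 4.3.3; robust glmQLFit, two-sided), with all 15 samples and 5 groups in the fit, 10 residual degrees of freedom and a coefficient of variation of 33.1%. The test was first run on simulated data. Endogenous genes were tested where their mean reached 20 counts. SE is log2FC over the square root of F. The members, the 27 gene lists and the rule for named genes were chosen with earlier results of these data known, and gene pairs, ratios and some genes named beside the rule after their values were seen. The rule named, in each list, the called gene that rose most and that fell most of those whose groups did not overlap, the 5 largest rises and falls of called genes in no list, all cell type markers, and Camp. Not every gene it named is described. Alternatives were TMM and median-of-ratios scaling, 7 reference genes, other filters, 6 samples only, DESeq2 1.42.0, limma 3.58.1 on log2 values, a floor of 20 counts, the replicate number as a block, and leaving out each library. Motifs were searched in RefSeq windows, which 407 of the 547 genes matched by symbol. Total counts of the 6 libraries ranged from 179472 to 509621. A few genes that the naming rule picks are not reported here.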

Additional observations from a re-analysis of the deposited data

How the results depend on the processing

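Every alternative left between 272 and 304 genes called, against 292 as reported. TMM scaling gave 285 calls and median-of-ratios scaling 288, and 242 and 244 genes were called in the same direction as with the reference genes. Both moved the split, to 135 higher and 150 lower and to 136 higher and 152 lower. DESeq2 called 304 genes, limma with a pseudocount of 10 called 286, and no filter on low counts 304 of 547. With each library left out in turn, 272 to 291 genes were called, 84 to 101 higher and 183 to 207 lower. TMM scaling without Sham replicate 2, chosen after seeing the data, called 273 genes, 129 higher and 144 lower. The replicate number as a block called 288 genes. Same-numbered Sham and WBIR libraries deviated from their group means with correlations of -0.39, -0.35 and 0.11. With 3 libraries in each group, these correlations cannot tell whether equal numbers mark paired samples.

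Of the 88 named genes that were tested, none of the 77 called ones changed direction, but over all 292 calls 7 changed sign and were lost with TMM scaling, 7 with median-of-ratios scaling, 5 with TMM scaling without Sham replicate 2 and 1 with the floor of 20 counts. Pou2f2, called lower, was at 0.11 with either scaling. The reversals among the named genes were of genes not called. With 1 library left out, the log2FC lay between -0.60 and 0.45 for Cd34, -1.91 and 0.27 for Csf3r, -0.56 and 0.98 for Cxcl13, -0.26 and 0.80 for Klrk1, -0.32 and 0.24 for Prdm1, and -1.01 and 0.23 for Prf1. TMM scaling put Cd34 at 0.46, Pecam1 at 0.0739, Prdm1 at 0.57 and Prf1 at 0.36, and median-of-ratios scaling put them at 0.47, 0.0897, 0.58 and 0.35. TMM scaling without Sham replicate 2 put Cd34 at 0.37, Csf3r at 0.69, Pecam1 at 0.19, Prdm1 at 0.43 and Prf1 at 0.65. Prdm1 was at 0.0314 with 7 reference genes and at 0.0047 with limma. The cause was not tested. Of the called genes that fell, 11 had under 20 raw counts in every WBIR library, and of those that rose, 5 had under 20 in every Sham library, where counting error limits the fold change.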
